A study of Mus musculus with 12 samples.

Results

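The brush border disaccharidases and peptidases considered here are 10 genes, Lct, Sis, Mgam, Treh, Anpep, Enpep, Dpp4, Mep1a, Mep1b and Alpi, taken by gene symbol from the 18929 genes listed in the deposited count tables. Of these, 4 encode disaccharidases, 5 encode peptidases and 1 encodes a phosphatase. RNA-Seq counts came from 12 libraries of murine jejunal enteroids, which are epithelial structures grown in Matrigel from intestinal crypts and kept for 5 days in medium with EGF, Noggin and R-spondin. Controls (villin-Cre), Hdac1-deficient enteroids and Hdac2-deficient enteroids had 4 libraries each. The Hdac1- and Hdac2-deficient enteroids came from mice with floxed alleles of the respective gene, and the controls carried villin-Cre. In all groups the Cre recombinase was driven by the villin promoter, which is active in intestinal epithelial cells. The mouse stock was a mix of C57BL/6 J, 129SV and CD1, and the methods describe crypts taken from 1 mouse of each genotype. No source states that the 4 libraries of a genotype stand for separate mice, and p-values measure the spread between these libraries. If the libraries of a genotype came from 1 mouse, a difference between mice cannot be told apart from the deletion. Hdac1 and Hdac2 are histone deacetylases that act in shared corepressor complexes. The age of the mice is not given in the sources used here.

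The brush border is the layer of microvilli on the apical face of absorptive enterocytes. Digestive hydrolases are anchored there, with their catalytic domains facing the lumen, and they complete the breakdown of sugars and peptides just before uptake. Enterocytes acquire these enzymes as they leave the crypt and mature on the villus. Lactase is the enzyme of milk feeding and declines at weaning in rodents, when sucrase-isomaltase and trehalase rise. Their genes are classical targets of CDX2, GATA and HNF4 transcription factors.

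The 5′ sequences of 9 of the 10 genes, all but Mep1b, were matched in RefSeq (GRCm38.p6). They are shown for Lct, Enpep and Mep1a, which rose more than 2-fold in both mutants, for Sis, the gene with the most counts, and for Dpp4, which moved least. Each runs 5′ to 3′ on the gene's own strand from 250 bases before the annotated start of transcription to 50 bases after it. The windows are, on GRCm38.p6, chr1:128328269-128328568 for Lct, chr3:72967814-72968113 for Sis, chr3:129332700-129332999 for Enpep, chr17:43502724-43503023 for Mep1a and chr2:62412182-62412481 for Dpp4, all on the minus strand. Capitals mark matches on either strand to a CDX site (TTTAT, any base, then G), a GATA site (AGATAA), an HNF4 site (CAAAGTCCA) or a TATA box (TATAAA).
Lct: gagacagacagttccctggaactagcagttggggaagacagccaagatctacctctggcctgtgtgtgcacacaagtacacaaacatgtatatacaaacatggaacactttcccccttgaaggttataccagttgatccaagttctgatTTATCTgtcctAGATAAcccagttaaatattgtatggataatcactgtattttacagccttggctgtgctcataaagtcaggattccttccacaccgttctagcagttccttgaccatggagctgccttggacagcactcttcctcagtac
Sis: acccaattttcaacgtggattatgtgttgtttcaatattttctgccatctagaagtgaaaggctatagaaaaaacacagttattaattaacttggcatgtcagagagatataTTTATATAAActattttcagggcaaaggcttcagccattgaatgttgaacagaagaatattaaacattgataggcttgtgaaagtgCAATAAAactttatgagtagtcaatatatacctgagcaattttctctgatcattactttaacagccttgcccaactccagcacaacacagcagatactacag
Enpep: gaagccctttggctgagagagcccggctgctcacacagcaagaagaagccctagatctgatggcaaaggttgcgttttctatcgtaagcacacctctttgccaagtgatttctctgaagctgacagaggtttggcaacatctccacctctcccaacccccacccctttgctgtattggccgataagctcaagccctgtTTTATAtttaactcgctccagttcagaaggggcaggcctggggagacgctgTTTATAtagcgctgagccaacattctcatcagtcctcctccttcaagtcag
Mep1a: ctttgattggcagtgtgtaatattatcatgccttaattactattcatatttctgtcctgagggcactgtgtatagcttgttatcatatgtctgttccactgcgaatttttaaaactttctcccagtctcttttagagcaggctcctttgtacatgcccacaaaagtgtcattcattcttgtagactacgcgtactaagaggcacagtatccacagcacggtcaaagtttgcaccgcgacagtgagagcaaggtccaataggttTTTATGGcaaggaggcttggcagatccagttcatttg
Dpp4: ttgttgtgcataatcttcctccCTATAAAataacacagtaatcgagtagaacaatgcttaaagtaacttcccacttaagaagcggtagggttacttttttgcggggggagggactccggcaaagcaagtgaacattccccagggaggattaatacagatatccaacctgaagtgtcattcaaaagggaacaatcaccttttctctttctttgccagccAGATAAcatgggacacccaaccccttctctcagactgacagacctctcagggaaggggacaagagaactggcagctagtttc

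In the Lct window, a pair of GATA matches in opposite orientation began 101 and 90 bases before the start. In the Sis window, the CDX match began 52 bases before the start, and the TATA matches on the 2 strands overlapped. The Enpep window held TATA matches only, 52 and 1 bases before the start. The Mep1a window held a CDX match beginning at base 14 of the transcript, and in the Dpp4 window a CDX match overlapped a TATA match 228 and 227 bases before the start, with a GATA match at 32 bases. Among the windows not printed, Alpi held an HNF4 match 19 bases before the start and a CDX match overlapping a TATA match 33 bases before it, Treh an HNF4 match at 71 bases, and Mgam 2 GATA matches at 208 and 66 bases. Over the 9 windows, 4 held the CDX site, 3 the GATA site, 2 the HNF4 site and 5 the TATA box. The same letters occurred in 11.3%, 11.4%, 0.477% and 14.2% of 27025 promoters of the same length, in that order. The Anpep window, chr7:79848161-79848460 on the minus strand, held none of these letters. It lies at a start inside the gene span given below, not at its outermost 5′ end. A match in a window of this kind is a description of letters, and no binding was measured.

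The label of each group was checked on the deleted genes. Levels are given as CPM, the count scaled to the library's size, as mean ± SD of 4 libraries. Hdac1 lay at 90.5 ± 2.87 CPM in control, 4.23 ± 0.841 without Hdac1 and 75.3 ± 4.41 without Hdac2. Hdac2 lay at 137 ± 4.39, 112 ± 3.702 and 75.9 ± 2.84 CPM in the same order, so that Hdac2-deficient libraries kept more than Hdac1-deficient libraries did of the gene removed in each. Between 20693200 and 30658628 counts fell on genes in each library, and the lowest count of any of the 10 genes in any library was 355. Markers of fibroblasts, immune and endothelial cells were near 0, with Ptprc, the pan-leukocyte antigen, at 0 to 4 counts, Col1a1 at 1 to 6 and Pecam1 at 3 to 13. Control replicate 1 lay below the other controls for Sis (2456 CPM against 2764 to 2816) and Mgam (657 against 800 to 860). Its Anpep was lowest too, but close to that of replicate 4 (270 and 272 CPM). For Dpp4, Mep1a and Mep1b it was the highest control.

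Each mutant was compared with control to ask which of these genes differed between them, and all 10 genes passed the filter on low counts in every comparison. A gene is called here if it changed more than 2-fold and its adjusted p from edgeR's quasi-likelihood test did not exceed 0.05, and the words rose and fell stand for the adjusted p alone. In Hdac1-deficient enteroids 5 of the 10 genes were called higher (Lct, Mep1a, Mep1b, Enpep and Sis) and 9 rose, against 6.87% and 32.7% of 14246 tested genes. In Hdac2-deficient enteroids 4 of the 10 were called higher (Lct, Mep1b, Mep1a and Enpep) and 10 rose, against 5.45% and 31.4% of 14007 tested genes. However, scaling to brush border structure genes turned Dpp4 lower and left Anpep without a difference that passed the adjusted p. That scaling also ended the calls of Sis in Hdac1-deficient enteroids (log2 0.76) and of Enpep in Hdac2-deficient enteroids (log2 0.95). None of the 10 was called lower in either mutant, where 3.71% of tested genes were called lower without Hdac1 and 2.84% without Hdac2. The 10 genes had a median log2 fold change of 0.99 without Hdac1 and 0.78 without Hdac2, and all tested genes had one of -0.0040 and -0.0036. Every Hdac1-deficient library lay above every control library for 9 of the genes, and every Hdac2-deficient library did so for all 10, where 29.0% and 29.2% of 12390 genes with a mean of at least 1 CPM did. Both comparisons use the same 4 control libraries.

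**Figure D1:**
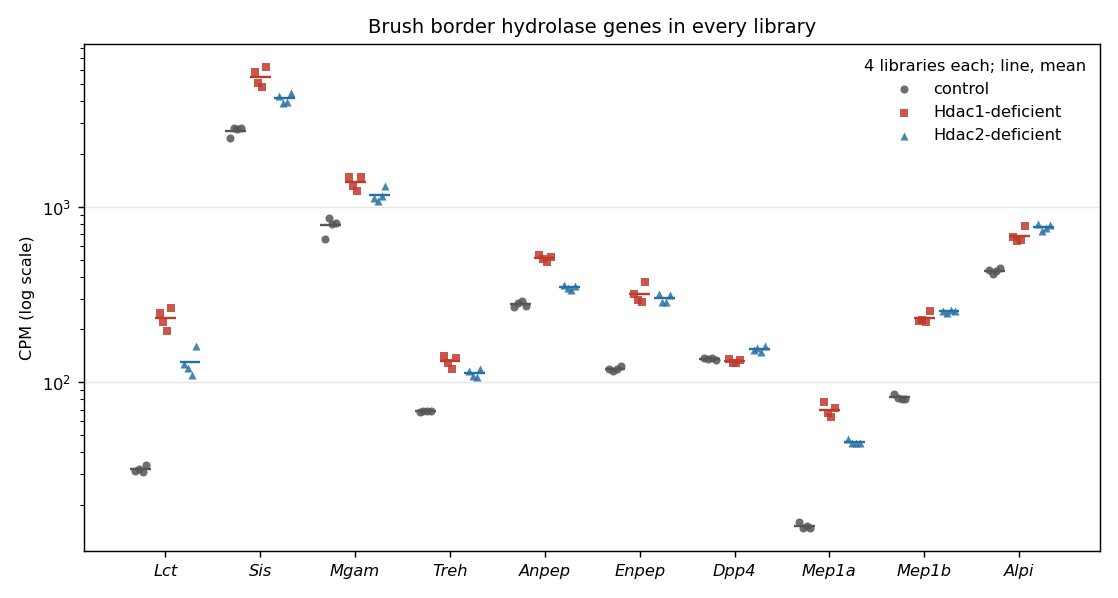
CPM (log scale) of the 10 genes in each library, with a point per library, a line at the mean of each group and 4 libraries per group. Lct shows the widest gap between the means of each mutant and control, and the Dpp4 points of control and Hdac1-deficient enteroids overlap.

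Sis encodes sucrase-isomaltase, which splits sucrose and the branch points of starch products, and it was the most abundant of the 10 genes in each group. The gene spans chr3:72888557-72967863 on the minus strand (GRCm38). In control enteroids Sis lay at 2456, 2795, 2764 and 2816 CPM in replicates 1 to 4. The Hdac1-deficient libraries held 5862, 5038, 4797 and 6220 CPM, and the Hdac2-deficient libraries 4256, 3878, 3932 and 4430 CPM. The 3 groups did not overlap, with control lowest and Hdac1-deficient enteroids highest. The change was 2.04-fold in Hdac1-deficient (log2 1.03 ± 0.08 SE, adjusted p = 1.8e-06) and 1.53-fold in Hdac2-deficient enteroids (log2 0.62 ± 0.05, adjusted p = 5.7e-08). The direct test put Sis 1.33-fold higher in Hdac1- than in Hdac2-deficient enteroids (log2 0.41 ± 0.08, adjusted p = 0.0020). The Hdac1 value lies at the 2-fold limit, and leaving out control replicate 1 (log2 0.98), Hdac1-deficient replicate 1 (0.995) or Hdac1-deficient replicate 4 (0.96) ended the call while the adjusted p stayed at 2.6e-05 or lower. Scaling the libraries to brush border structure genes ended it too (log2 0.76, adjusted p = 1.3e-10). Per kilobase of exon, Sis ranked 126 of 17874 genes in control enteroids at 363 ± 22.7 CPM per kb.

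Lct encodes lactase-phlorizin hydrolase, which splits milk sugar, and it spans chr1:128284756-128328318 on the minus strand. It moved furthest of the 10 genes in both mutants. Control libraries held 31.5, 32.2, 31.0 and 34.0 CPM. Hdac1-deficient libraries held 247, 220, 197 and 265 CPM, and Hdac2-deficient libraries 128, 120, 110 and 162 CPM. All Hdac2-deficient libraries lay above all controls and below all Hdac1-deficient libraries. Lct rose 7.28-fold in Hdac1-deficient (log2 2.86 ± 0.10, adjusted p = 7.4e-09) and 4.08-fold in Hdac2-deficient enteroids (log2 2.03 ± 0.13, adjusted p = 7.3e-06). It was 1.78-fold higher in Hdac1- than in Hdac2-deficient enteroids (log2 0.83 ± 0.12, adjusted p = 3.2e-04).

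Mgam encodes maltase-glucoamylase, the partner of sucrase-isomaltase in the digestion of starch, at chr6:40628831-40769123 on the plus strand. Control libraries held 657, 860, 800 and 811 CPM. Hdac1-deficient libraries held 1480, 1304, 1225 and 1481 CPM, and Hdac2-deficient libraries 1116, 1074, 1154 and 1305 CPM. Both mutants lay above control in every library, and the mutants overlapped. Mgam rose 1.77-fold in Hdac1-deficient (log2 0.82 ± 0.10, adjusted p = 1.1e-04) and 1.496-fold in Hdac2-deficient enteroids (log2 0.58 ± 0.10, adjusted p = 0.0018), and the difference between the mutants did not pass the test (log2 0.24, 95% interval 0.05 to 0.43, adjusted p = 0.072). A neighbouring pseudogene copy, Mgam2-ps, lay at 34.7 to 51.0 CPM in control, 68.8 to 89.1 without Hdac1 and 52.9 to 64.0 without Hdac2, and reads could be shared between both, so the Mgam values are uncertain to that extent.

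Treh encodes trehalase, which splits the sugar of fungi and insects, at chr9:44673233-44686305 on the plus strand. The control libraries lay close together, at 68.1, 68.5, 68.8 and 69.1 CPM. Hdac1-deficient libraries held 141, 130, 120 and 137 CPM, and Hdac2-deficient libraries 117, 109, 108 and 119 CPM. Both groups lay above control without overlap, and all Hdac1-deficient libraries lay above all Hdac2-deficient ones. Treh rose 1.94-fold in Hdac1-deficient (log2 0.95 ± 0.04, adjusted p = 2.8e-13) and 1.66-fold in Hdac2-deficient enteroids (log2 0.73 ± 0.04, adjusted p = 2.7e-13). The difference between the mutants was 1.17-fold (log2 0.22 ± 0.04, adjusted p = 1.5e-04). The last bases of Treh overlap Phldb1 on the opposite strand.

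Within the disaccharidases, Sis held nearly the same share of the transcripts in each group, while that of Lct was higher in both mutants and that of Mgam lower in every Hdac1-deficient library than in any control. Sis made up 75.5 ± 0.821% of the summed counts of the 4 genes in control, 75.9 ± 0.625% without Hdac1 and 74.6 ± 0.930% without Hdac2. The share of Mgam was 21.7 ± 0.996%, 19.1 ± 0.541% and 21.01 ± 0.896%, and that of Treh 1.92 ± 0.137%, 1.84 ± 0.105% and 2.05 ± 0.0505%, in the same order. Lct went from 0.898 ± 0.0616% to 3.21 ± 0.0794% and 2.34 ± 0.254%, with no overlap between any groups. These shares are a description without a test. Counted per kilobase of exon, which allows levels to be compared between genes, Sis held 73.9%, 73.9% and 72.6%, and Treh, the shortest of the 4, 6.85%, 6.52% and 7.26%.

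**Figure D2:**
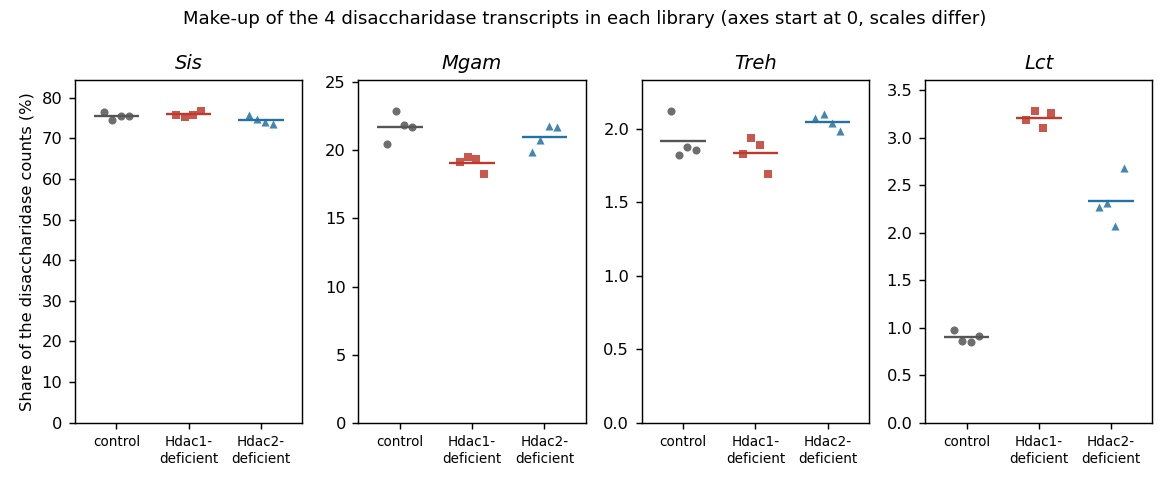
Share of each disaccharidase gene among the summed counts of the 4 (percent, each axis from 0, scales differ), with a point per library and a line at the group mean. Sis stays near 75% in all groups, and Lct lies at 0.845 to 0.980% in control and 3.11 to 3.28% in Hdac1-deficient libraries.

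The peptidases did not move as a block. Anpep encodes aminopeptidase N, which removes neutral residues from the ends of peptides, at chr7:79821803-79861059 on the minus strand. Control libraries held 270, 283, 292 and 272 CPM. Hdac1-deficient libraries held 529, 501, 487 and 514 CPM, and Hdac2-deficient libraries 360, 344, 337 and 356 CPM. The 3 groups did not overlap, in the order control, Hdac2-deficient and Hdac1-deficient. Anpep rose 1.83-fold in Hdac1-deficient enteroids (log2 0.87 ± 0.04, adjusted p = 3.9e-14). In Hdac2-deficient enteroids it rose 1.26-fold (log2 0.33 ± 0.03, adjusted p = 1.2e-08), a direction that turned when the libraries were scaled to brush border structure genes (log2 -0.07, adjusted p = 0.051). It was 1.45-fold higher in Hdac1- than in Hdac2-deficient enteroids (log2 0.54 ± 0.03, adjusted p = 3.8e-13).

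Enpep encodes aminopeptidase A, which removes acidic residues, at chr3:129269175-129332720 on the minus strand. Control libraries held 120, 116, 119 and 123 CPM. Hdac1-deficient libraries held 317, 293, 286 and 374 CPM, and Hdac2-deficient libraries 320, 285, 286 and 315 CPM. Both mutants lay above control without overlap and overlapped each other. Enpep rose 2.68-fold in Hdac1-deficient (log2 1.42 ± 0.08, adjusted p = 1.8e-07) and 2.54-fold in Hdac2-deficient enteroids (log2 1.35 ± 0.04, adjusted p = 1.0e-16), and the latter fell short of the 2-fold limit under structure-gene scaling (log2 0.95). The mutants differed by log2 0.07 (95% interval -0.08 to 0.23, adjusted p = 0.49), a value that went to -0.01 without Hdac1-deficient replicate 4. The ratio of Anpep to Enpep CPM was 2.34 ± 0.126 in control, 1.61 ± 0.161 without Hdac1 and 1.16 ± 0.0412 without Hdac2.

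Dpp4 encodes dipeptidyl peptidase 4, which trims dipeptides after proline and inactivates incretin hormones, at chr2:62330073-62412231 on the minus strand. Control libraries held 138, 136, 137 and 135 CPM. Hdac1-deficient libraries held 136, 130, 129 and 133 CPM, and Hdac2-deficient libraries 153, 157, 149 and 160 CPM. Control and Hdac1-deficient libraries overlapped, and all Hdac2-deficient libraries lay above both. In Hdac1-deficient enteroids Dpp4 differed from control by log2 -0.03 (95% interval -0.10 to 0.03, adjusted p = 0.37). In Hdac2-deficient enteroids it rose 1.14-fold (log2 0.19 ± 0.03, adjusted p = 1.0e-05), but was lower than control under structure-gene scaling (log2 -0.21, adjusted p = 2.1e-06), as it was in Hdac1-deficient enteroids on that scale (log2 -0.30, adjusted p = 7.2e-08). The direct test gave log2 -0.23 ± 0.03 for Hdac1- against Hdac2-deficient enteroids (adjusted p = 7.8e-07).

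Mep1a and Mep1b encode the alpha and beta subunits of meprin, a metalloprotease that assembles from both. Mep1a, at chr17:43474324-43502812 on the minus strand, held 16.1, 14.9, 15.2 and 14.9 CPM in control libraries. Hdac1-deficient libraries held 77.7, 67.4, 63.5 and 71.8 CPM, and Hdac2-deficient libraries 47.5, 45.2, 45.1 and 45.4 CPM. The 3 groups did not overlap, with Hdac1-deficient enteroids highest. Mep1a rose 4.62-fold in Hdac1-deficient (log2 2.21 ± 0.06, adjusted p = 1.5e-16) and 3.02-fold in Hdac2-deficient enteroids (log2 1.59 ± 0.05, adjusted p = 3.5e-17). It was 1.53-fold higher in Hdac1- than in Hdac2-deficient enteroids (log2 0.61 ± 0.05, adjusted p = 7.6e-11).

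Mep1b, at chr18:21061923-21100199 on the plus strand, held 86.2, 81.9, 80.5 and 80.7 CPM in control libraries. Hdac1-deficient libraries held 223, 228, 222 and 255 CPM, and Hdac2-deficient libraries 256, 247, 260 and 253 CPM. Both mutants lay above control without overlap, and only Hdac1-deficient replicate 4 reached the range of the Hdac2-deficient libraries. Mep1b rose 2.84-fold in Hdac1-deficient (log2 1.51 ± 0.04, adjusted p = 2.6e-16) and 3.10-fold in Hdac2-deficient enteroids (log2 1.63 ± 0.03, adjusted p = 1.9e-20). The direct test gave log2 -0.13 ± 0.04 for Hdac1- against Hdac2-deficient enteroids (adjusted p = 0.0056), which was gone under structure-gene scaling (log2 1.7e-04, adjusted p = 1.00). The alpha to beta ratio of CPM was 0.186 ± 0.0031 in control, 0.303 ± 0.031 without Hdac1 and 0.180 ± 0.0052 without Hdac2. All Hdac1-deficient libraries, at 0.281 to 0.348, lay above the range of 0.174 to 0.189 of the other 8. Per kilobase of exon, meprin beta stood at 31.4 ± 1.00 and meprin alpha at 4.42 ± 0.162 CPM per kb in control enteroids.

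**Figure D3:**
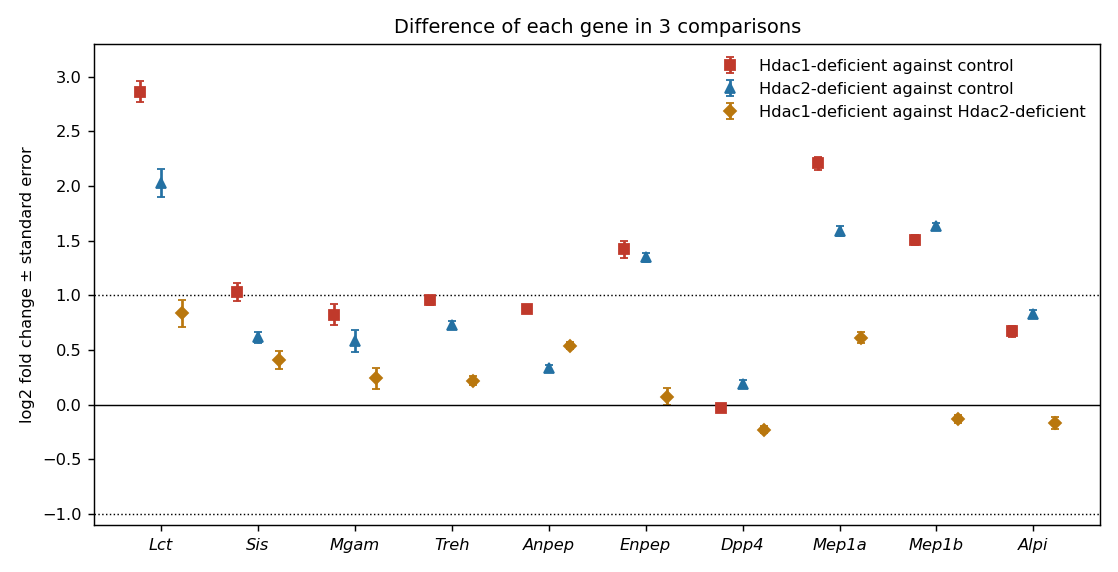
Log2 fold change with its standard error for each gene in the 3 comparisons (4 libraries per group), with dotted lines at the 2-fold limits. Lct, Mep1a, Mep1b and Enpep lie above the upper limit in both mutants, Sis at the limit in Hdac1-deficient enteroids, and Dpp4 near 0. Under structure-gene scaling the small Hdac2-deficient increase of Dpp4 turned lower, and Anpep no longer differed from control at the adjusted p.

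Alpi encodes intestinal alkaline phosphatase, which dephosphorylates lipopolysaccharide and marks mature enterocytes, at chr1:87098002-87101606 on the minus strand. Control libraries held 438, 415, 430 and 445 CPM. Hdac1-deficient libraries held 668, 635, 649 and 779 CPM, and Hdac2-deficient libraries 801, 724, 751 and 785 CPM. Both mutants lay above control without overlap, and Hdac1-deficient replicate 4 reached into the Hdac2-deficient range. Alpi rose 1.59-fold in Hdac1-deficient (log2 0.67 ± 0.05, adjusted p = 2.4e-08) and 1.78-fold in Hdac2-deficient enteroids (log2 0.83 ± 0.03, adjusted p = 8.6e-15). The direct test gave log2 -0.17 ± 0.05 for Hdac1- against Hdac2-deficient enteroids (adjusted p = 0.018), and log2 -0.04 with an adjusted p of 0.49 under structure-gene scaling.

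Further alkaline phosphatase genes lie on both sides of Alpi, and Akp3 did not follow it in Hdac1-deficient enteroids. Akp3, another intestinal alkaline phosphatase, starts 23367 bases from Alpi on the plus strand and held 18.4, 20.8, 21.9 and 19.2 CPM in control libraries. Hdac1-deficient libraries held 10.8, 11.2, 10.4 and 15.8 CPM, and Hdac2-deficient libraries 51.1, 50.7, 60.7 and 52.5 CPM. The groups did not overlap and moved in opposite directions from control. Akp3 fell in Hdac1-deficient enteroids (log2 -0.73 ± 0.12, adjusted p = 1.2e-04), was called higher in Hdac2-deficient enteroids (log2 1.42 ± 0.06, adjusted p = 2.4e-12), and was called lower in the direct test (log2 -2.16, adjusted p = 6.4e-09). Alppl2, 8074 bases to the other side, lay at 0.453 ± 0.183 CPM in control and rose to 3.32 ± 0.940 in Hdac1-deficient (log2 2.86, adjusted p = 2.1e-08) and 1.85 ± 0.159 in Hdac2-deficient enteroids (log2 2.02, adjusted p = 2.1e-07). Its control libraries held only 0.281 to 0.703 CPM, and control replicate 2 lay under the filter on low counts in both comparisons. Alppl2 thus passed that filter through the mutant libraries, which leaves it little room not to differ, and its fold changes are uncertain. The 3 genes are close in sequence, so reads shared between them would make the low values of Akp3 and Alppl2 less certain than those of Alpi.

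**Figure D4:**
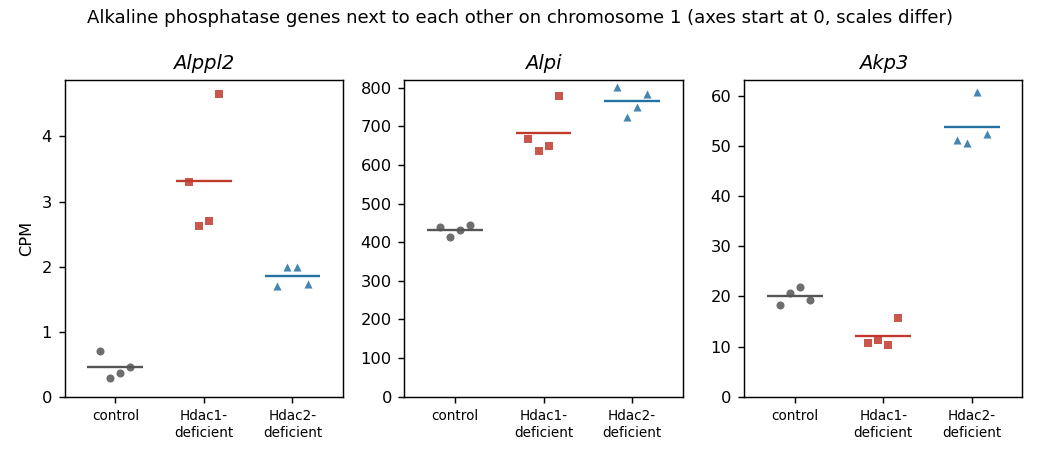
CPM of Alppl2, Alpi and Akp3, neighbours on chromosome 1, with a point per library and a line at the mean of each group (each axis from 0, scales differ). Akp3 lies at 10.4 to 15.8 CPM in Hdac1-deficient and 50.7 to 60.7 CPM in Hdac2-deficient libraries, on either side of control.

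Against control, 6.87% of all tested genes were called higher and 3.71% lower without Hdac1, and 5.45% and 2.84% without Hdac2. Among the other nearest protein-coding genes within 200 kb of the 10 genes, 1 more was called. It was Gcg, the proglucagon gene of enteroendocrine cells, 62299 bases from Dpp4, which went from 1.86 to 2.18 CPM in control to 22.7 to 31.0 in Hdac1-deficient (log2 3.76, adjusted p = 2.6e-14) and 13.3 to 16.3 CPM in Hdac2-deficient libraries (log2 2.95, adjusted p = 3.3e-16). Beside Lct, Ubxn4 differed by log2 0.05 and 0.09 from control in the Hdac1 and Hdac2 comparisons, and Mcm6, a subunit of the replicative helicase, fell by 0.36 and 0.45 on the log2 scale. Sis had no neighbour listed within that distance. Beside Mep1a, Adgrf5 and Pla2g7 were below the filter on low counts.

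The mutants were compared directly to ask which genes differed between them. None of the 10 genes was called at more than 2-fold, where 2.74% of 14510 tested genes were called higher and 2.89% lower, and the count was 0 of 10 in edgeR's quasi-likelihood test, its exact test and DESeq2. At the adjusted p alone, 5 genes were higher in Hdac1-deficient enteroids (Lct, Mep1a, Anpep, Sis and Treh) and 3 were lower (Dpp4, Alpi and Mep1b), against 22.3% and 23.7% of 14510 tested genes, and Mgam and Enpep did not pass. Under structure-gene scaling Mep1b (log2 1.7e-04, adjusted p = 1.00) and Alpi (log2 -0.04, adjusted p = 0.49) no longer passed, while Mgam (log2 0.37, adjusted p = 0.0018) and Enpep (log2 0.20, adjusted p = 0.0034) did, both higher in Hdac1-deficient enteroids. The libraries of the mutants did not overlap for 6 of the genes, 5 higher and 1 lower, where 20.7% and 24.2% of 12390 genes did so.

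Taken over the 10 genes, the share of all counts was 0.467 ± 0.0282% in control, 0.923 ± 0.0904% without Hdac1 and 0.732 ± 0.0388% without Hdac2 (SD, n = 4). The libraries ranged from 0.425 to 0.484%, from 0.834 to 1.02% and from 0.693 to 0.782%, without overlap. Each pair of groups gave an exact permutation p of 0.029 (two-sided, 0.029 after adjustment over 3 pairs), the smallest that 4 against 4 allows. Sis carries most of this share, and without it the means were 0.195%, 0.371% and 0.324%, with an adjusted exact p of 0.057 between the mutants. The summed CPM of 10 enterocyte markers, Alpi among them, moved with it, at 12702 to 14575 in control, 22762 to 25253 without Hdac1 and 18353 to 20891 without Hdac2. That of 6 stem cell markers went the other way, at 4633 to 4764, 2783 to 3223 and 2492 to 2719. The part of these markers in the result was not tested, and in whole enteroids more enterocytes and more RNA per enterocyte cannot be told apart.

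Other genes of the brush border were read from lists of their own. Of all tested genes, 6.87% were called higher without Hdac1 and 5.45% without Hdac2. Of 20 further brush border hydrolases, 15 were tested in Hdac1-deficient enteroids and 10 were called higher (median log2 1.09), and 16 were tested in Hdac2-deficient enteroids with 9 called higher (median 1.36). Some of these genes had control libraries under the filter on low counts and passed it through the mutant libraries, which leaves them little room not to differ. Without them, a split made after the values were seen, 8 of 13 were called higher in Hdac1-deficient enteroids (median 1.06) and 5 of 12 in Hdac2-deficient enteroids (median 0.80). The genes left out were Plb1, a phospholipase, and Nt5e, an ecto-nucleotidase, in both comparisons, and Tmprss15, the enteropeptidase that activates trypsinogen, and Enpp7, the alkaline sphingomyelinase, in the Hdac2 comparison. Tmprss15 was tested in the Hdac2 comparison alone, with 3, 1, 1 and 0 counts in control and 13, 20, 22 and 16 counts in Hdac2-deficient libraries, so its fitted fold change is not given. Plb1 held 1 to 20 counts in any library (log2 1.41 ± 0.40 without Hdac1, adjusted p = 0.0042). Nt5e held 10, 12, 10 and 11 counts in control and 89, 110, 87 and 92 counts in Hdac2-deficient libraries (log2 3.35 ± 0.19, adjusted p = 2.5e-12). Enpp7 rose by log2 4.91 ± 0.17 in Hdac1-deficient (adjusted p = 2.5e-12) and by 2.23 ± 0.20 in Hdac2-deficient enteroids (adjusted p = 4.4e-09). It held only 26, 10, 27 and 14 counts in control, so these fold changes are uncertain. Its mean was 0.676 CPM in control, 20.6 without Hdac1 and 3.20 without Hdac2. In the Hdac1 comparison it lay close to the filter and counts among the 13. Naaladl1, a peptidase, rose by log2 4.91 ± 0.09 in Hdac1-deficient enteroids (adjusted p = 1.1e-15). Naaladl1 went from 3.601 ± 0.222 CPM in control to 108 ± 11.8 without Hdac1 and 13.95 ± 1.203 without Hdac2.

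The 20 genes of brush border structure moved less. Without Hdac1, 2 were called higher and 1 lower (median log2 0.40), against 6.87% and 3.71% of all tested genes. Without Hdac2, 2 were called higher and 0 lower (median 0.39), against 5.45% and 2.84%. Counts this small lie near those shares and are a description. At the adjusted p alone, 13 of the 20 rose and 4 fell without Hdac1, against 32.7% and 31.9% of all tested genes. Without Hdac2, 17 rose and 1 fell, against 31.4% and 30.9%. The called genes were Tmigd1, an epithelial adhesion protein (log2 4.45 in Hdac1- and 3.86 in Hdac2-deficient enteroids), Pdzk1, a scaffold of apical transporters (1.78 and 1.32), and Capza1, an actin capping subunit (-1.03 in Hdac1-deficient enteroids). Tmigd1 held 7 to 10 counts in the control libraries and likewise passed the filter through the mutants. The villin gene Vil1, whose promoter drove the Cre, rose by log2 0.40 and 0.44. Scaling the libraries to these 20 genes moved the median of all tested genes by log2 -0.27 for Hdac1 and -0.40 for Hdac2, and on that scale Lct, Mep1a, Mep1b and Enpep stayed called in Hdac1-deficient enteroids and Lct, Mep1a and Mep1b in Hdac2-deficient enteroids.

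Of 9 genes for the uptake of sugars and amino acids, 2 were called higher in Hdac1-deficient enteroids (Slc6a20a, an imino acid transporter, log2 2.11, and Slc2a5, the fructose transporter, 1.12) and 1 in Hdac2-deficient enteroids (Slc6a20a, 1.54), with medians of 0.80 and 0.48. At the adjusted p alone, 8 rose and 1 fell without Hdac1 (Slc1a1, log2 -0.26, adjusted p = 0.0095), against 32.7% and 31.9% of all tested genes. Without Hdac2, 7 rose and 0 fell, against 31.4% and 30.9%. Of 17 regulators of enterocyte genes, 2 were called higher in each mutant, with Maf (log2 1.04 and 1.151) among them, and 0 lower, with medians of 0.08 and 0.10. The shares of all tested genes to set beside these counts were 6.87% and 5.45% called higher, and 3.71% and 2.84% called lower. Cdx2 differed by 0.01 and -0.02, Hnf4a by 0.09 and 0.17 and Gata4 by -0.02 and 0.11 on the log2 scale. Hnf4g, the other HNF4 gene of the list, rose by 0.52 and 0.44 (adjusted p = 2.4e-08 and 5.2e-09). Elf3 fell by 0.46 in Hdac1-deficient enteroids and differed by -0.01 in Hdac2-deficient enteroids. At the adjusted p alone, 8 of the 17 regulators rose and 3 fell without Hdac1, and 9 rose and 2 fell without Hdac2. Among 4 markers of the suckling and adult epithelium, Fcgrt, the neonatal Fc receptor that takes up milk antibodies before weaning, rose by log2 1.83 and 1.87, and Ass1 and Arg2, urea cycle enzymes of the suckling and adult gut, differed by -1.198 and -0.73 and by 0.91 and 0.61. Prdm1, the repressor expressed in the suckling gut, fell by 0.71 in Hdac1-deficient enteroids and differed by 0.04 in Hdac2-deficient enteroids (adjusted p = 0.80). The 4 tested markers of position along the gut did not share a direction. Cybrd1, a duodenal iron reductase, was called lower in Hdac1-deficient enteroids (log2 -1.21) and fell by 0.14 in Hdac2-deficient enteroids. Fabp1, a fatty acid binding protein of the proximal gut, rose in both (log2 0.60 and 0.51), and Gata4, a factor of the proximal gut, differed by -0.02 (adjusted p = 0.61) in Hdac1-deficient enteroids and rose by 0.11 in Hdac2-deficient enteroids. Slc10a2, the ileal bile acid transporter, rose in both (log2 0.83 and 1.03) and was called in Hdac2-deficient enteroids. It held only 17 to 49 counts in any library, and its Hdac2 value (log2 1.03 ± 0.20 SE) lies at the 2-fold limit, so that call is uncertain.

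**Figure D5:**
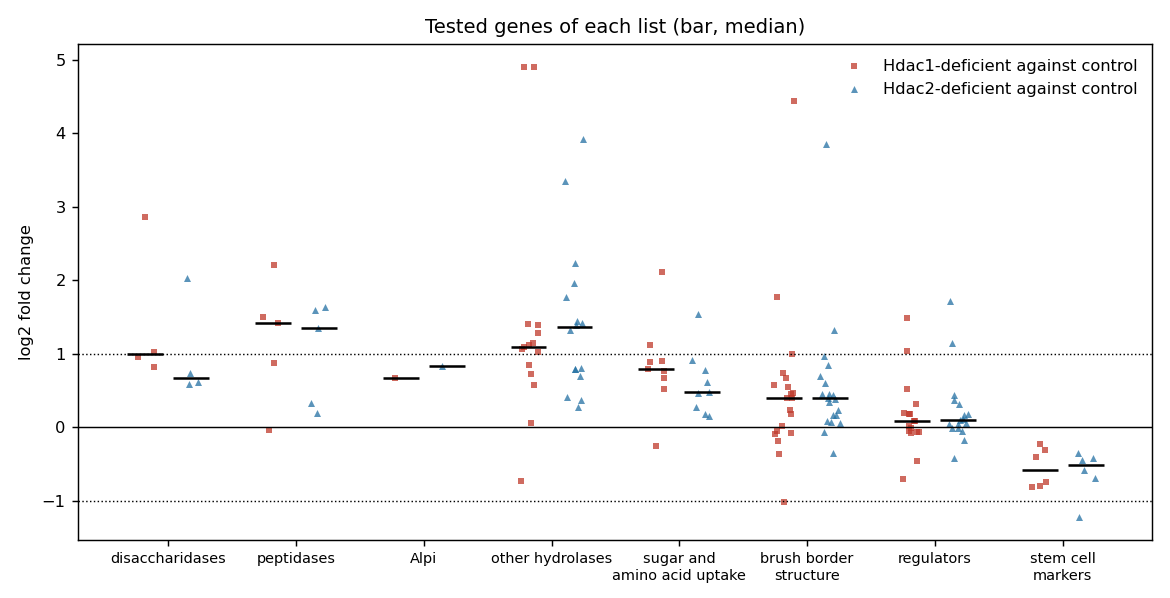
Log2 fold change of each tested gene in 8 lists in both mutants against control (a point per gene, a bar at the list's median, dotted lines at the 2-fold limits). The hydrolase and peptidase lists lie mostly above 0, regulators lie around 0, and the stem cell markers lie below 0 in both mutants.

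Cell type marker lists gave these counts against control. Among all tested genes 6.87% were called higher and 3.71% lower without Hdac1, and 5.45% and 2.84% without Hdac2. Of 10 enterocyte markers 3 were called higher without Hdac1 and 2 without Hdac2, led by Apoa1 (log2 1.74 and 1.48). All 6 stem cell markers fell in both, with Olfm4 called in Hdac2-deficient enteroids (log2 -0.82 and -1.23) and Lgr5 at -0.75 and -0.69. Of 6 cycling markers 4 fell in each mutant with none called, and Pcna, the polymerase clamp, rose in both (log2 0.17, adjusted p = 4.8e-04, and 0.14, adjusted p = 0.0017). Of all tested genes 31.9% fell without Hdac1 and 30.9% without Hdac2. Of 7 enteroendocrine markers 4 and 3 were called higher, of 7 goblet markers 2 in each, of 6 Paneth markers 1 in each, and no tuft marker was called in either. The lists were mixed, with medians of log2 1.18 and 0.29 for enteroendocrine, -0.03 and 0.53 for goblet and 0.02 and 0.40 for Paneth markers. Without Hdac1, 3 goblet markers rose and 1 fell (Tff3, log2 -0.40), and 2 Paneth markers rose and 1 fell (Ang4, -0.63). Without Hdac2, 4 enteroendocrine markers rose and 1 fell (Chga, -0.18).

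Within groups the 10 genes varied together to different degrees. After the group means were taken out, Pearson's r of log2 CPM over the 12 libraries ranged from -0.05 (Anpep and Mep1b) to 0.96 (Enpep and Alpi) over the 45 pairs, with 0.86 for Sis and Mgam and 0.30 for the meprin subunits. The values of a library share its depth and its scaling factor, so these coefficients are a description. Among 10366 genes with a mean of at least 5 CPM, the patterns nearest to Lct over the 12 libraries were those of Slc2a2, the basolateral glucose transporter, Cyp4f14 and Aoc1 (Pearson's r of 0.996 to 0.997). Phlpp2 and Megf9 were among the nearest to Sis (0.991 and 0.990), and the nearest to Alpi were Slc26a3, Dgat1 and Nfe2l2 (0.993 to 0.995). These coefficients include the differences between the 3 groups.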

How the data were processed

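The groups and replicate numbers of the 12 enteroid libraries follow their titles. The authors sequenced poly(A)-selected RNA with a strand-specific kit, aligned reads to GRCm38 with STAR (2.4.0f1 per the submitters' processing notes) and deposited whole-number counts per gene without normalization, in 1 table per mutant with the same 4 controls, listing the genes whose counts sum to 10 or more. The counting program is not given in the sources used here. A rounded, normalized score for every gene in each library was deposited as well, beside the authors' own fold changes, mean log CPM and p-values, and none of these was used. Genes of both tables (17972) were joined by identifier.

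Counts were tested with edgeR 4.0.16 in R 4.3.3 (TMM factors of 0.981 to 1.02, filterByExpr, robust quasi-likelihood F test) with Benjamini-Hochberg adjustment over all tested genes, 8 libraries per comparison with control and 12 for the mutants, which share 1 spread. The standard error is the log2 fold change over the square root of F. CPM used the TMM factors. The depth was 20693200 to 30658628 counts per library and the common biological coefficient of variation 0.0384 to 0.0425. Shares were compared with exact permutation tests (scipy 1.17.1). Positions came from GENCODE M21 (GRCm38), which held 99.4% of the identifiers. Correlations used log2(CPM + 0.5).

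The members and lists were chosen with earlier results of these data known. Named are all members, up to 3 called genes per list, the nearest protein-coding neighbours within 200 kb, the 3 genes most like Lct, Sis and Alpi, and Hdac1 and Hdac2, some of which are not reported here; genes named beyond these were chosen after their values were seen. Alternatives were DESeq2 1.42.0, the exact test, other size factors, library size alone, other filters, other thresholds, all 12 or only mutant libraries, scaling to brush border structure genes, the replicate number as a block, and each library left out. The scripts were tested on simulated counts.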

Additional observations from a re-analysis of the deposited data

Results flagged for a closer look

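In 33 groups of 4 values (10 genes and their summed share, in 3 groups) 4 held a library far from the other 3 by Dixon's criterion, where chance gives about 1 in 20. Control replicate 1 was lowest for Sis, at 2456 CPM against 2764 to 2816, and for the share of the 10 genes among all counts, at 0.425% against 0.478 to 0.484%. Hdac2-deficient replicate 1 was highest for Mep1a, at 47.5 CPM against 45.1 to 45.4. Hdac1-deficient replicate 4 was highest for Mep1b, at 255 CPM against 222 to 228.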

How the results depend on the processing

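The number of genes called against control was 5 for Hdac1 and 4 for Hdac2 and stayed within 4 to 5 and 3 to 4 under every other normalization, filter, tool and left-out library; it was 9, 10 and 8 (mutants compared) with no limit on the fold change, and 8 and 6 in a test against a 1.5-fold change, which has a lower limit by construction. Leaving out 1 library gave 4 to 5 for Hdac1, with Sis the gene lost, 4 for Hdac2 and 0 between the mutants. Scaling to structure genes turned Anpep (log2 -0.068) and Dpp4 (-0.21) in Hdac2-deficient enteroids and Mep1b between the mutants (1.7e-04), and moved Sis in Hdac1-deficient (0.76) and Enpep in Hdac2-deficient enteroids (0.95) under the 2-fold limit; without Hdac1-deficient replicate 4 Enpep turned to -0.013 between the mutants (-0.013 to 0.12 over the left-out libraries). The test against 1.5-fold added Mgam, Treh and Anpep for Hdac1 and Treh and Alpi for Hdac2. The share of the 10 genes differed by 0.422 to 0.485 percentage points for Hdac1, 0.248 to 0.278 for Hdac2 and 0.157 to 0.221 between the mutants with 1 library left out, where 3 against 4 cannot go below an exact p of 0.057; without Sis the mutants differed by 0.0467 percentage points (adjusted exact permutation p = 0.057). Per kilobase of exon the share of Sis among the disaccharidases was 73.9% for control, 73.9% for Hdac1-deficient and 72.6% for Hdac2-deficient libraries. Same-numbered libraries deviated together with r of -0.15 to 0.18, so the numbers were not taken as pairs, and the replicate block gave 5, 4 and 0 called genes, as without it. Of 300 other single-gene values 290, and of 280 with 1 library left out 276, kept direction and call.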
